A study of Bos taurus with 12 samples.

Results

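The transcripts described here are those of hemoglobin, of heme synthesis and of heme breakdown in bovine cumulus-oocyte complexes. They comprise 9 genes of the 17983 distinct gene rows in the deposited count table, namely the globins HBA, HBM and HBB, the synthesis enzymes ALAS1, ALAS2, ALAD and FECH, and the heme oxygenases HMOX1 and HMOX2. They were chosen by symbol, after HBA had been seen to span over 100-fold between libraries, so the levels of HBA are given as a description. Each symbol had 1 row in the table.

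A cumulus-oocyte complex is an oocyte inside its layer of cumulus granulosa cells. Groups of 50 complexes were matured in vitro either in control medium or in medium with polystyrene nanoplastics 50 nm in diameter at 3 µg/mL, and polyadenylated RNA was sequenced from 6 samples of each kind. The material came in 3 batches, and which sample belonged to which batch is not stated in the labels. Each sample pools 50 complexes, oocyte and cumulus cells together.

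Heme is an iron-bearing ring made in a chain of enzymes that starts and ends in the mitochondrion. ALAS1, or its red-cell form ALAS2, makes the first intermediate, ALAD joins the next, and FECH inserts the iron. Globins bind heme to carry oxygen, and their genes lie in an alpha and a beta cluster, expressed at high level in developing red blood cells. Globin transcripts have also been described in ovarian follicle cells of mice and humans. The oxygenases HMOX1, which is inducible, and HMOX2, which is constitutive, open the ring to release iron, carbon monoxide and biliverdin.

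Libraries held 14167578 to 20008464 counts. Levels below are CPM (counts scaled to a common library size), with TMM factors on the counts of the 12311 genes tested. Granulosa and cumulus markers summed to 10009 to 11495 CPM in the control group and 10517 to 11721 CPM in the nanoplastics group, and oocyte markers to 962 to 1178 and 941 to 1181 CPM, so markers of both labelled cell types were present in each library. On the second principal component of log2 CPM (13.2% of the variance) Control 5 stood at 27.9 and the other 11 libraries at −14.6 to 9.72. Values without Control 5 are given where they bear on a result.

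Of the 9 genes, 7 passed the filter on low counts and were tested. HBB and ALAS2 did not pass. HBB, the adult beta chain of hemoglobin, had a count of 0 in all 12 libraries, where a count of 0 allows up to 3 counts, or 0.151 to 0.208 CPM depending on the library. ALAS2, the erythroid form of the first enzyme, had 1 count, in Nanoplastics 3. The beta-cluster genes HBE1, HBE2, HBE4 and HBG were also at 0 in every library. Reads shared by near-identical globin copies may be split or lost in counting, so these zeros and the levels of HBA are uncertain to that extent.

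HBA, the alpha chain of hemoglobin, differed more between libraries than all but 1 of the 12311 tested genes. Its count was 36 in Control 5, 52 in Control 1 and 175 in Control 4. It was 449 in Control 3, 1027 in Control 6 and 1961 in Control 2. Control libraries thus spread from 2.01 to 98.6 CPM with a median of 18.6 CPM, and no gap between neighbours there exceeded 1.92 on the log2 scale. In the nanoplastics libraries it was 51 in Nanoplastics 3 and 111 in both Nanoplastics 4 and Nanoplastics 6. It was 2386 in Nanoplastics 5, 3363 in Nanoplastics 2 and 5860 in Nanoplastics 1. The nanoplastics libraries fell into 2 sets of 3, with a gap of 4.46 on the log2 CPM scale between 2.60 and 7.07, and ran from 3.53 to 345 CPM with a median of 69.9 CPM. The highest library held 172 times the CPM of the lowest. In bulk RNA, fewer cells of a type and less RNA per cell cannot be told apart.

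HBM, an alpha-type globin encoded beside HBA, was highest in the same libraries, at low counts. It had 151 counts in Nanoplastics 1, 107 in Nanoplastics 2, 102 in Control 2 and 78 in Nanoplastics 5. Control 6 held 46 and Control 3 held 25, and the other 6 libraries held 0 to 8. The 6 libraries with the most HBA were thus the 6 with the most HBM. Over all libraries HBM made up 3.28% of the counts of both genes (exact 95% interval 3.01 to 3.57%). In Nanoplastics 1 its share was 2.51% (2.13 to 2.94%), and in Control 2 it was 4.94% (4.05 to 5.97%), so the intervals of these 2 libraries did not overlap. Control 5, with 8 HBM and 36 HBA counts, stood at 18.2% (8.19 to 32.7%). These intervals cover counting error only.

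**Figure D1:**
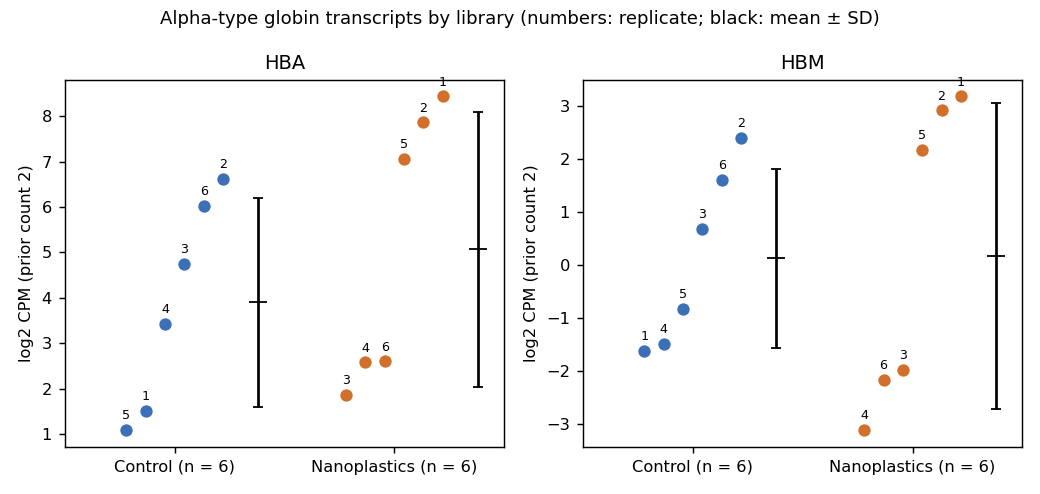
Log2 CPM (prior count 2) of HBA and HBM in each library, with the replicate number above each point and the mean ± SD of the 6 libraries of a group in black. Nanoplastics 1, 2 and 5 lie at 7.07 to 8.43 for HBA, above Control 2 at 6.63, and Nanoplastics 3, 4 and 6 lie at 1.87 to 2.60, within the control range.

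The spans of the heme enzymes were of another order. From the lowest to the highest library, the log2 CPM of HBA spanned 7.35 and that of HBM 6.28, which ranked 2 and 5 among the tested genes. ALAD spanned 0.97, HMOX1 0.76, FECH 0.60, ALAS1 0.40 and HMOX2 0.37 on that scale. A larger span was found for 23.8% of tested genes in the case of ALAD, 35.4% for HMOX1, 49.8% for FECH, 77.4% for ALAS1 and 82.3% for HMOX2. Without Nanoplastics 1 the span of ALAS1 was 0.24 and that of FECH 0.33, and without Control 1 the span of HMOX1 was 0.41, so a single library set much of each.

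Red blood cells were looked for through a list of their markers, of which 19 had a row in the table. Of these, 6 were at 0 in all 12 libraries, namely the anion exchanger SLC4A1, the glycophorin GYPB, the erythroid transcription factor GATA1, and TRIM58, KEL and CA1. AHSP, the chaperone of free alpha globin, had at most 4 counts in any library. Only GYPC, SPTB, BPGM and TAL1 passed the count filter, and their r with HBA was −0.23, −0.67, −0.42 and −0.42. The summed level of the list was 33.6 to 46.0 CPM over the control group and 30.9 to 47.7 CPM over the nanoplastics group. It was 32.9 CPM in Nanoplastics 1 and 37.5 CPM in Control 5, the libraries with the most and the least HBA. On average GYPC made up most of this sum, with 22.4 ± 2.21 CPM over the 6 control and 23.9 ± 3.34 CPM over the 6 nanoplastics libraries (SD). SPTB followed with 10.4 ± 1.77 and 7.83 ± 2.78 CPM. The sum thus says little about the markers at or near 0, and the share of red blood cells was not tested. Leukocyte markers summed to 8.75 to 13.3 CPM over the control group and 10.2 to 21.3 CPM over the nanoplastics group, with PTPRC at no more than 9 counts in any library. Platelet markers summed to 6.04 to 9.57 and 6.49 to 10.2 CPM, with TREML1 at 0 throughout. Of the list of further globins, myoglobin (MB), cytoglobin (CYGB), neuroglobin (NGB) and HBQ1 had at most 8 counts in any library, and only ADGB was tested. ADGB averaged 0.753 ± 0.320 CPM over the 6 control and 0.759 ± 0.159 CPM over the 6 nanoplastics libraries (SD), with a log2 fold change of 0.02 (SE 0.30).

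The comparison of nanoplastics with control libraries asked whether maturation with the particles changed these transcripts. None of the 7 tested members was called, and the quasi-likelihood test of edgeR, adjusted after Benjamini-Hochberg over all genes, gave each an adjusted p of 0.999. Of the 12311 tested genes 0 were called (0.00%), with 2.10% at an unadjusted p under 0.05, and 0 of the 7 members lay under that level. DESeq2 and limma-voom also called 0 genes. The p-values are set against the spread between libraries, whatever its source, and no within-batch value can be given.

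HBA averaged 34.3 ± 39.4 CPM over the 6 control and 121 ± 144 CPM over the 6 nanoplastics libraries (SD). Its log2 fold change of 1.82 (SE 1.05) had a 95% interval of −0.42 to 4.06. Nanoplastics 1, 2 and 5 lay above every control library and Nanoplastics 3, 4 and 6 below the control median, so the groups overlapped. The value was 1.15 without Nanoplastics 1 and 2.5 without Control 2. With limma-voom it was 1.17. HBM averaged 1.74 ± 1.96 and 3.49 ± 4.00 CPM (SD over 6 libraries each) and a log2 fold change of 0.98 (SE 0.94, interval −1.03 to 2.98). For HBM the value was 0.43 without Nanoplastics 1, 0.62 without Nanoplastics 2 and 1.73 without Control 2, and limma-voom gave −0.42. The authors' deposited table lists log2 fold changes of 1.82 for HBA and 1.00 for HBM, with unadjusted p-values of 0.118 and 0.429.

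ALAS1, the rate-limiting enzyme of heme synthesis outside red cells, lay at 165 to 189 CPM in control libraries (median 176) and at 143 to 186 CPM in nanoplastics libraries (median 166). The lowest of all was Nanoplastics 1. The groups overlapped, and the log2 fold change was −0.07 (SE 0.07, interval −0.21 to 0.07). FECH, which inserts iron into the ring, was tightly placed in control libraries at 32.3 to 35.6 CPM and more widely in nanoplastics libraries at 24.8 to 37.8 CPM. Both the lowest and the highest FECH level of the series were in nanoplastics libraries, and the log2 fold change was −0.10 (SE 0.08, interval −0.28 to 0.08). ALAD, which condenses the first intermediate into a ring precursor, ran from 35.4 to 67.3 CPM in control (median 58.7) and from 44.1 to 69.4 CPM in nanoplastics libraries (median 54.2). Control 5 and Control 1 were the lowest, and the log2 fold change was 0.06 (SE 0.16, interval −0.27 to 0.39).

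HMOX1 lay at 23.1 to 39.0 CPM in control (median 32.5) and at 29.99 to 36.9 CPM in nanoplastics libraries (median 33.3), with a log2 fold change of 0.07 (SE 0.11, interval −0.16 to 0.30). The lowest library was Control 1, and without it the value was −0.02. HMOX2 lay at 129 to 167 CPM and 129 to 159 CPM, with a log2 fold change of −0.02 (SE 0.08, interval −0.18 to 0.14). All 5 heme enzymes overlapped between the groups.

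**Figure D2:**
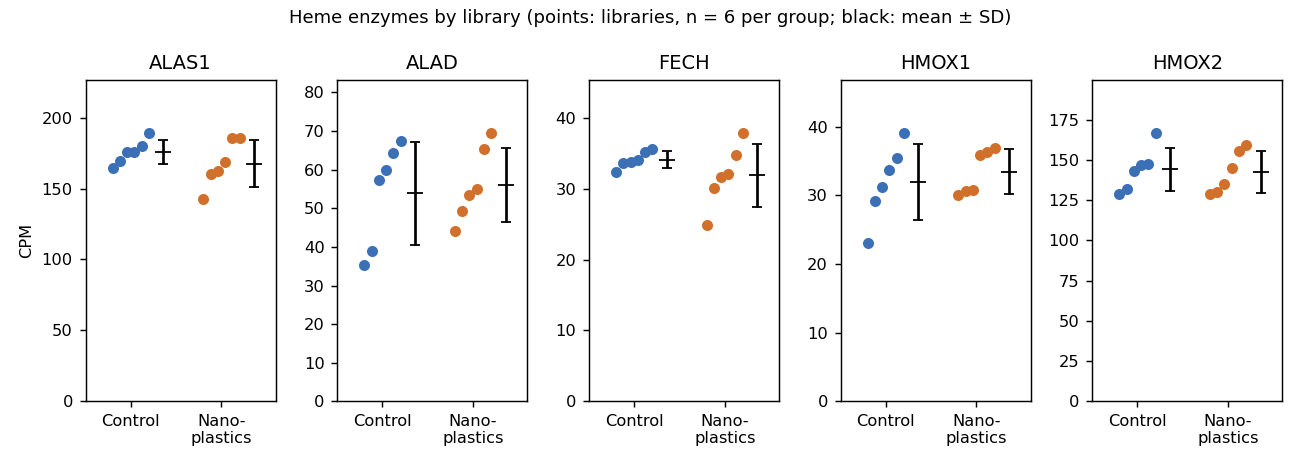
CPM of the 5 tested heme enzymes, one panel per gene with its own axis from 0, points for libraries (n = 6 per group) and the mean ± SD in black. The groups overlap in every panel, and Nanoplastics 1 is the lowest library for ALAS1 at 143 CPM and for FECH at 24.8 CPM.

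Other enzymes of the pathway also had 0 called in either direction. Of 4 further synthesis enzymes, 3 had positive and 1 a negative log2 fold change. Their median was 0.02, against 0.00 over all tested genes. The largest in size was that of UROD, which trims the side chains of the ring, at −0.14 (SE 0.12, interval −0.39 to 0.11). The most abundant was PPOX, the last oxidation before iron insertion, with 34.8 ± 3.75 CPM over the 6 control and 35.7 ± 2.90 CPM over the 6 nanoplastics libraries (SD). Biliverdin is reduced to bilirubin by BLVRA and BLVRB. BLVRA averaged 124 ± 8.30 and 118 ± 16.4 CPM (SD over 6 libraries each), which made a log2 fold change of −0.07 (SE 0.09), and that of BLVRB was 0.04.

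**Figure D3:**
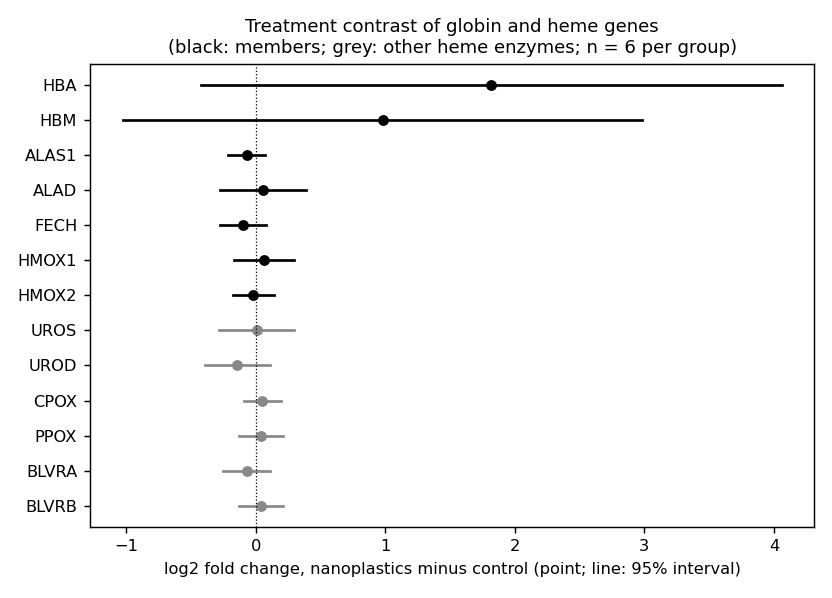
Log2 fold change of nanoplastics against control with its 95% interval for the 7 tested members (black) and 6 other heme enzymes (grey). All 13 intervals include 0, and those of HBA (−0.42 to 4.06) and HBM (−1.03 to 2.98) are much wider than the rest.

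Genes that move, sense or store heme and iron were described by lists. Heme and porphyrin transport had 7 positive and 6 negative values among 13 tested genes and a median of 0.00, with 0 called. Its most abundant gene TSPO, a mitochondrial outer membrane protein, had a value of 0.01 (SE 0.06), and its largest value was −0.18 (SE 0.15) for SLC48A1, which exports heme from lysosomes. Heme sensing and HMOX1 control had 10 positive and 4 negative values among 14 genes, a median of 0.03 and 0 called. MAFF, a small Maf partner of the NRF2 and BACH factors, had the largest at 0.41 (SE 0.27), and the most abundant gene was the mitochondrial protease LONP1 at 0.22 (SE 0.19). Iron handling had 11 positive and 7 negative values among 18 genes, a median of 0.06 and 0 called. TFRC, the transferrin receptor, had −0.21 (SE 0.09, interval −0.39 to −0.02, adjusted p = 0.999 with edgeR), from 147 ± 18.04 CPM over the 6 control and 127 ± 12.8 CPM over the 6 nanoplastics libraries (SD). FTH1, the ferritin heavy chain, had 0.06 (SE 0.06). Of the list for scavenging of free hemoglobin and heme, only the receptor LRP1 was tested (−0.02, SE 0.07), and haptoglobin (HP) and hemopexin (HPX) had at most 5 counts in any library.

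The lists for other cell types and for the oxygen response likewise had 0 called. The 4 tested red blood cell markers had 1 positive and 3 negative values and a median of −0.26, with GYPC at 0.09. The membrane skeleton gene SPTB had −0.41 (SE 0.19, interval −0.82 to −0.0046, adjusted p = 0.999 with edgeR). The 6 leukocyte markers had 5 positive values and a median of 0.24, with the receptor CSF1R at 0.81 (SE 0.43) and CD68 at 0.06, and the only platelet marker tested, ITGA2B, had 0.18. Endothelial markers had 2 positive and 2 negative values among 4, with VWF at 0.18 and KDR at −0.02, and summed to 37.9 to 54.0 CPM over all libraries. Oocyte markers had 6 positive and 5 negative values and a median of 0.03, with ZAR1 at 0.56 and UCHL1 at 0.03. Cumulus and granulosa markers had 8 positive and 4 negative values and a median of 0.07, with the FSH receptor FSHR at 0.22 and SERPINE2 at 0.03. Oxygen response genes had 20 positive and 2 negative values among 22 and a median of 0.31. Over all 12311 tested genes 6217 values were positive, with a median of 0.00. The 22 values are not independent, since 18 of these genes had r of at least 0.7 with HBA. The glucose transporter SLC2A1 stood at 0.94 (interval −0.14 to 2.01) and the glycolytic enzyme ENO1 at 0.42.

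The large spread of HBA invited the question of what else differed along with it. Across the 12 libraries its log2 CPM was set against 8 measures. These were the other 6 tested members, VEGFA, an angiogenic factor induced by low oxygen, and the mean log2 CPM of the 22 oxygen response genes, a list chosen with earlier results known. P-values are two-sided permutation values with 100000 resamples, adjusted over the 8 relations. VEGFA and the oxygen response mean count among these 8, which can lower the adjusted p of the members. Each relation was also taken within the 6 control libraries. Within the nanoplastics group no r is given, since HBA fell into 2 sets of 3 there and r would only set one against the other. The values of those libraries are given instead where the relation in controls was weak. The points share their library, its depth and its cell mix, and some may share a batch of material. The permutations treat all 12 libraries as exchangeable and do not allow for this.

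The libraries stood in nearly the same order by HBA and by the mean of the oxygen response genes. VEGFA and that list were taken up with earlier results of these data known, so their values are a description, with no test. With VEGFA the order was identical (Spearman's rho = 1.0, Pearson's r = 0.971, n = 12). VEGFA was 2037 CPM in Nanoplastics 1, the library with the most HBA, 483 CPM in Control 4 and 108 CPM in Control 5, the library with the least. With the mean of the list the values were r = 0.988 and rho = 0.993 (n = 12). Without the 2 libraries farthest from the HBA median, Nanoplastics 1 and Nanoplastics 2, r was 0.965 for VEGFA and 0.991 for the list. Within the 6 control libraries it was 0.98 and 0.995. An r with HBA of at least 0.7 was found for 18 of the 22 oxygen response genes and for 10.1% of all other tested genes. HBA had r = 0.97 with the first principal component of all tested genes, which held 33.7% of the variance.

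The cell mix and depth of the libraries are given beside this. The summed CPM of oocyte markers had r = −0.833 with the log2 CPM of HBA, that of cumulus and granulosa markers r = 0.785, and the total count r = 0.0429. A single gene made up most of each sum, UCHL1 with 721 ± 44.5 CPM and SERPINE2 with 6502 ± 548 CPM over the 6 control libraries (SD). Gene by gene the lists went both ways. Of 11 tested oocyte markers, DPPA3 (−0.81), KPNA7 (−0.74) and BMP15 (−0.72) had r at or below −0.7, against 6.87% of all tested genes, and 0 had r of at least 0.7. Positive r was found for 5 of the 11, up to 0.257 for ZP3, and the median was −0.29. Of 12 cumulus and granulosa markers, SERPINE2 (0.753) and HAS2 (0.71) had r of at least 0.7, against 10.1% of all tested genes. Among these 12 the median was 0.429, and FST (−0.687), INHA (−0.405) and AMH (−0.148) had negative r. The part of the cell mix in the relation of HBA with other genes was not tested.

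The members too were chosen with earlier results of these data known, which the p-values below do not allow for. Among the members, HBM and ALAD went with HBA. An absolute r of at least 0.7 was reached by 2 of the 6 other tested members, these 2, and by 16.9% of all other tested genes. For HBM the values were r = 0.924 (adjusted permutation p = 0.000747) and rho = 0.825 (adjusted permutation p = 0.00298), with r = 0.878 without the 2 farthest libraries and 0.899 within controls (exact permutation p = 0.0278, n = 6). A larger absolute r with HBA was found for 1.11% of tested genes. For ALAD they were r = 0.786 (adjusted permutation p = 0.00532) and rho = 0.832 (adjusted permutation p = 0.00298), with r = 0.711 without the 2 farthest and 0.831 within controls (exact permutation p = 0.0597, n = 6). For ALAD a larger absolute r was found for 9.13% of tested genes.

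ALAS1, FECH and HMOX2 pointed the other way over the 12 libraries, with many other genes more closely tied to HBA. A larger absolute r with HBA was found for 26.2% of tested genes in the case of ALAS1, 32.8% for FECH and 22.2% for HMOX2. ALAS1 had r = −0.614 (adjusted permutation p = 0.0398) and rho = −0.538 (adjusted permutation p = 0.10), with r = −0.268 without the 2 farthest libraries and 0.17 within controls (exact permutation p = 0.721, n = 6). HMOX2 had r = −0.651 (adjusted permutation p = 0.0398) and rho = −0.559 (adjusted permutation p = 0.10), with −0.48 and −0.273 in those settings (exact permutation p = 0.613 within controls, n = 6). Without Control 5, second lowest of all in HMOX2 at 129 CPM, r was −0.936. The adjusted p of HMOX2 passed the threshold in 5 of 12 cases with 1 library left out and missed it in 7, with r of −0.646 to −0.581 in the latter, close to the full value. For ALAS1 it missed in 8 of 12, with r of −0.448 without Nanoplastics 1 and −0.609 to −0.572 in the other 7. FECH had r = −0.553 (adjusted permutation p = 0.0518) and rho = −0.462 (adjusted permutation p = 0.153). Without the 2 farthest libraries r was −0.0446 for FECH, and within controls it was 0.579 (exact permutation p = 0.228, n = 6). The values of ALAS1 and FECH over 12 libraries were thus weaker without Nanoplastics 1 and Nanoplastics 2. Without Control 2, the highest library in ALAS1 at 189 CPM, they were stronger, at r = −0.804 for ALAS1 and −0.639 for FECH.

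The nanoplastics libraries are given here from the most to the least HBA, that is 1, 2, 5, 6, 4 and 3. ALAS1 was 143, 160.1, 163, 186, 169 and 185 CPM in that order. HMOX2 was 129, 130.1, 135, 156, 145 and 159 CPM. Both were lowest in the 3 libraries with the most HBA. FECH was 24.8, 30.1, 32.0, 31.6, 37.8 and 34.7 CPM, lowest in the 2 libraries with the most HBA.

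HMOX1 did not pass, with r = 0.127 (adjusted permutation p = 0.712) and rho = 0.0909 (adjusted permutation p = 0.782). Without the 2 farthest libraries r was 0.364 for HMOX1, and within controls it was 0.509 (exact permutation p = 0.314, n = 6). With HBA at its lowest in Control 5 and Control 1, HMOX1 was 29.2 and 23.1 CPM, and with HBA at its highest in Nanoplastics 1 and Nanoplastics 2 it was 29.99 and 30.6 CPM.

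**Figure D4:**
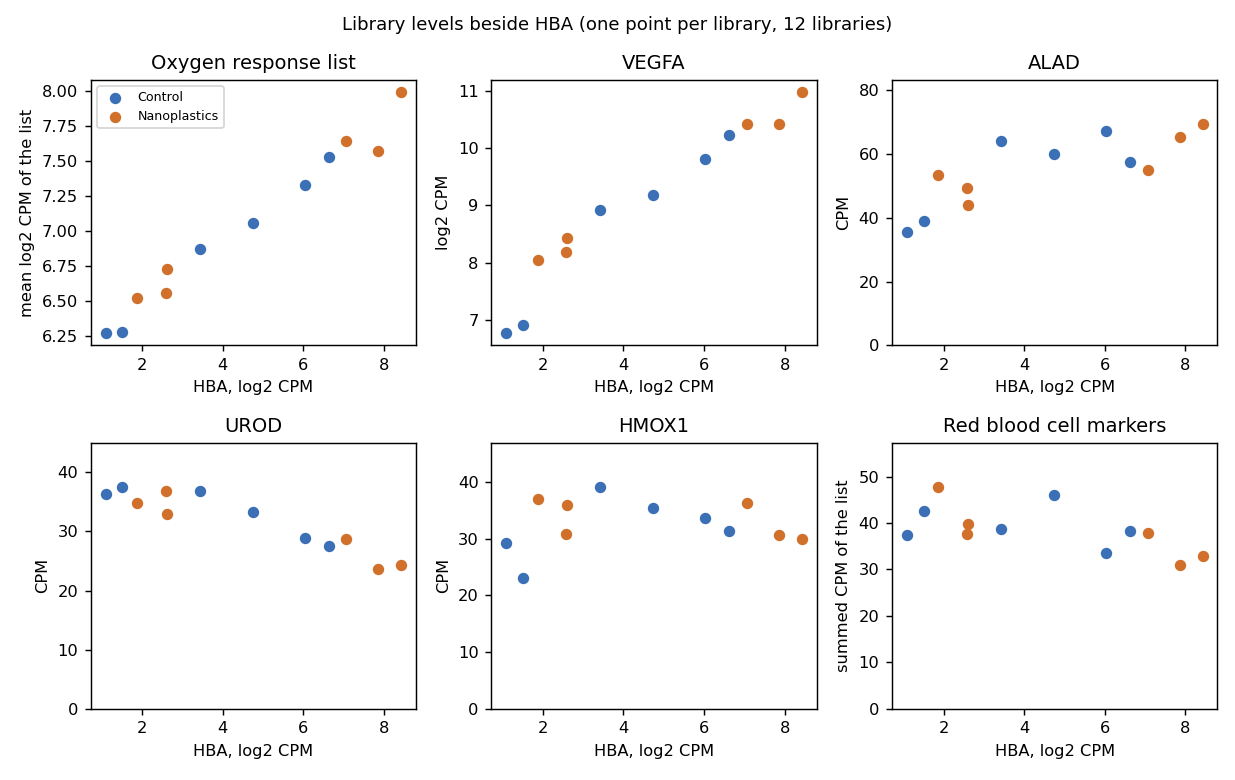
Each of the 12 libraries by its log2 CPM of HBA (x axis) and, in 6 panels, the mean log2 CPM of the oxygen response list, the log2 CPM of VEGFA, the CPM of ALAD, UROD and HMOX1, and the summed CPM of red blood cell markers. The oxygen list and VEGFA climb with HBA (r = 0.988 and 0.971), UROD is lower where HBA is higher (r = −0.933), and HMOX1 lies between 23.1 and 39.0 CPM.

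The 4 further synthesis enzymes did not share a pattern. UROD was 24.4 CPM in Nanoplastics 1 and 23.7 CPM in Nanoplastics 2, and 37.5 CPM in Control 1 and 36.3 CPM in Control 5. Its r with HBA was −0.933 over 12 libraries and −0.913 within controls. UROS (−0.37), CPOX (0.223) and PPOX (0.416) were weaker. An r of −0.7 or lower was found for 1 of these 4 enzymes and for 6.87% of all tested genes. Downstream of the oxygenases, BLVRA had r = −0.709 and BLVRB r = 0.591. These values are descriptions, and with counts scaled by the library total alone those of UROD (−0.942) and BLVRA (−0.788) kept their sign, and that of BLVRB was 0.316.

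Of the 14 heme sensing genes, those at r of 0.7 or more with HBA were LONP1 (r = 0.97), MAFF (0.967), NR1D2, a heme-binding nuclear receptor (0.906), and BACH1, a heme-sensing repressor of HMOX1 (0.738), 4 of 14 against 10.1% of all tested genes. LONP1 was 358 CPM in Nanoplastics 1 and 154 CPM in Control 1, and MAFF was 141 CPM in Nanoplastics 1 and 36.2 CPM in Control 5. With scaling by the library total alone BACH1 had r = 0.465. Of 13 transport genes, the porphyrin transporter ABCB6 had r = 0.907 and the mitochondrial transporter ABCB10 r = −0.774, which made 1 at or above 0.7 and 1 at or below −0.7, against 10.1% and 6.87% of all tested genes. Of 18 iron genes, the iron chaperone PCBP2 had r = 0.876, and STEAP3, which reduces iron in endosomes, NFS1, which supplies sulfur for iron-sulfur clusters, and the metal importer SLC39A14 had r = −0.836, −0.773 and −0.767, which made 1 and 3 of 18 against the same shares. Apart from MAFF and LONP1, these genes were singled out after their values were seen.

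**Figure D5:**
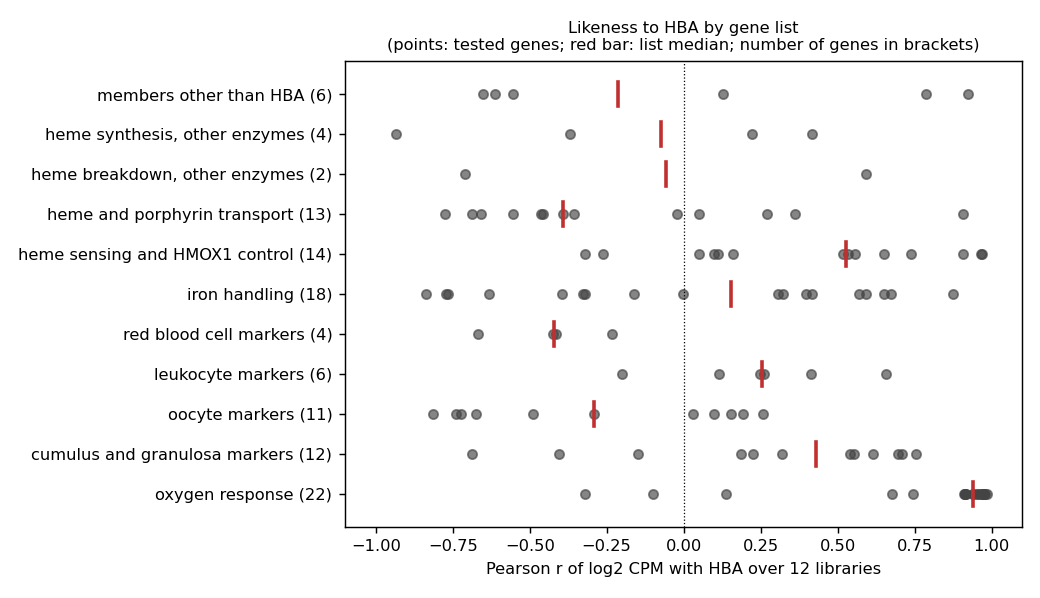
Pearson r of log2 CPM with HBA over 12 libraries for the 6 other tested members and for the tested genes of 10 lists (points), with the list median as a red bar and the number of genes in brackets. The oxygen response list lies farthest to the right with a median of 0.938. The 4 red blood cell markers that passed the count filter all lie below 0.

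The 10 tested genes closest to HBA over the 12 libraries had r of 0.98 to 0.99. They were ATP6V1B2, a proton pump subunit (0.99), the glucose transporter SLC2A3 (0.989), ALDH3B1 (0.987), the transcriptional repressor BHLHE40 (0.986), DLC1 (0.985) and the mitophagy receptor BNIP3 (0.984). The others were the mitochondrial adenylate kinase AK4 (0.982), PPP1R3C, which directs a phosphatase to glycogen (0.981), NLGN2 (0.981) and the mitochondrial ribosomal protein MRPL45 (0.98). Their size of change differed widely. SLC2A3 ran from 27.9 to 3771 CPM, whereas ALDH3B1 ran from 5.25 to 10.2 CPM.

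For the enzymes the closest genes were others. ALAD was closest to TRIM10 (0.935), FAM163A (0.922) and NOLC1 (0.921). ALAS1 was closest to RAB20 (0.917), the lipid droplet protein PLIN3 (0.901) and CERCAM (0.896). FECH was closest to NDST3 (0.925), SEMA4F (0.91) and GNG7 (0.893), of which NDST3 and SEMA4F had r of −0.0176 and 0.0324 within controls. HMOX1 was closest to CACNB1 (0.917), LYSMD1 (0.856) and TTC7A (0.852). No gene was in more than 1 of these sets.

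The genes that flank HBA were read in order from the RefSeq table of assembly ARS-UCD2.0, a choice made after the values were seen, and the build used for the counts is not known here. HBA lies there between HBM and HBA1, a further alpha gene that was not analysed here and whose reads, as a near-identical copy, may be split with those of HBA or lost, followed by HBQ1 with 14 counts in total. NPRL3 is the nearest gene outside the cluster on the HBM side, and its introns hold the main alpha-globin enhancers in mouse and human. It had r = 0.88 with HBA and a log2 span of 0.89. An r of at least 0.7 was found for 10.1% of all tested genes, and a link through the enhancers was not tested. LUC7L, the nearest on the other side, also spanned 0.89 and had r = −0.0953. Farther out, MPG (−0.019), FAM234A (−0.0487) and AXIN1 (−0.0276) were near 0. SNRNP25 and ARHGDIG both had 0.213, RHBDF1 had 0.547 and POLR3K −0.492.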

How the data were processed

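Libraries of polyadenylated RNA were read from both ends over 150 bases, per the labels. The submitters' processing notes name Trim Galore 0.4.5, STAR 2.5.4b and DESeq2, with no roles. Neither counting tool nor strand setting, build or annotation is known here, so reads of genes that overlap, on either strand, cannot be separated, and no coordinates are printed. The deposited count table held raw counts for 18057 gene rows, and 74 exact copies were dropped. The deposited log2 table held log2 values equal to log2 of the count plus a constant per library, with 0 listed as 0.9 reads. For the contrast, the authors deposited p-values, log2 fold changes and mean raw counts per group (a signal unit). Besides, 4 deposited columns of other groups were not used.

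Genes were filtered with filterByExpr (minimum count 10, minimum total 15, 6 libraries), scaled by TMM and tested with edgeR 4.0.16 in R 4.3.3 (glmQLFit, glmQLFTest, two-sided, threshold 0.05 after Benjamini-Hochberg adjustment). Log2 CPM used a prior count of 2. Alternatives used DESeq2 1.42.0, limma 3.58.1, other scalings, no count filter, summed rows, a replicate block and left-out libraries. Correlations used Python 3.11.15 and numpy 2.4.6. The procedure was tested on simulated counts with the same dispersion for all genes and no batches. A spread as wide as that of HBA and HBM was therefore not covered. All pairs of libraries within a group differed beyond counting noise (smallest chi-square per degree of freedom 5.01).

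The members and the 14 gene lists were chosen with earlier results of these data known. Named genes were the members, the most abundant gene and the gene of largest fold change of each list, and the 10 genes closest to HBA and the 3 closest to each of ALAS1, HMOX1, FECH and ALAD. Some items of these lists are not reported here.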

Additional observations from a re-analysis of the deposited data

Results flagged for a closer look

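Each library was compared with the other 5 of its group by the gap to its nearest neighbour over the range of the group, for the log2 CPM of the 7 tested members and for the HBM share of HBA and HBM counts. Of these 16 groups of values, 1 held a library set apart, and chance sets apart about 1 in 20. It was Control 5, whose HBM share was 18.2%, against 2.23 to 7.14% in the other control libraries. That share rests on 8 HBM and 36 HBA counts.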

How the results depend on the processing

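No gene and no member was called under any of the 19 alternatives. Pairing by replicate number was not evident in the values, which cannot show how the samples were laid out. Same-numbered libraries correlated at −0.265 to 0.43 over genes, above 0.1 in 2 of 6 pairs. Of the 6 control libraries, 1 correlated best with its own number. With the replicate number as a block 0 genes were called, and the log2 fold change was 0.84 for HBA and 0.60 for HBM. The HBM value reversed to −0.42 with limma-voom. Over left-out libraries HBA ran from 1.15 to 2.5, HBM from 0.43 to 1.73, ALAD from −0.042 to 0.13, HMOX1 from −0.018 to 0.13 and HMOX2 from −0.060 to 0.022. ALAD was negative without Control 1, Control 5 or Nanoplastics 1, HMOX1 without Control 1, and HMOX2 positive without Control 1, Nanoplastics 1 or Nanoplastics 2. The cause was not tested.

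The log2 span of HBA was 7.18 to 7.40 and that of HBM 4.99 to 8.27 over other scalings, prior counts and the deposited log2 values. That of HMOX2 was 0.52 with library totals alone and 0.51 in the deposited log2 values. The alternatives for correlations and the deposited log2 values were added after the data were seen. Left-out cases share most of their libraries, so they are not separate tests. Over left-out libraries r with HBA was 0.964 to 0.976 for VEGFA and 0.985 to 0.994 for the oxygen list. It was 0.907 to 0.959 for HBM and 0.742 to 0.853 for ALAD, past the threshold in each case. It was −0.804 to −0.448 for ALAS1 and −0.936 to −0.581 for HMOX2, which did not pass in 8 and 7 of 12 cases, −0.639 to −0.328 for FECH, which passed in 3, and −0.228 to 0.239 for HMOX1. FECH also passed with library totals (r = −0.648), DESeq2 size factors (−0.558) and a prior count of 5 (−0.556), and HMOX1 reversed to −0.0594 with library totals. ALAS1 and HMOX2 had larger absolute r with library totals, at −0.727 and −0.786 (adjusted permutation p = 0.00602 for each). Without Control 5 r was −0.688 for ALAS1 and −0.936 for HMOX2. At 0 to 8 counts in 6 libraries, depth limits HBM, and HBB and ALAS2 gave no fold change.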
